A study of Rattus norvegicus with 24 samples.

Results

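The liver mRNAs described here encode the factors that start and drive protein synthesis on the ribosome. Members were the genes whose symbol begins with Eif and a digit from 1 to 6, or with Eef and 1 or 2, on an array probe set that the platform annotation pairs with 1 gene symbol. Where a gene had several such probe sets, the one with the highest mean log2 intensity over all arrays was kept. Membership went by the symbols, under a rule chosen with earlier results of these data known. It gave 58 genes out of 17245 measured. Of these, 55 are annotated as ordinary genes and 3 as pseudogenes (Eef1a1-ps15, Eef1g-ps4 and Eif5-ps1), whose probes cannot be told apart here from those of the parent genes they resemble.

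The 58 genes came from 68 probe sets. Another 2 probe sets, which pair Eif3m and Eif5 with a second symbol, were left out, so these genes were not analysed here. The probe sets of the 7 genes with more than 1 had the same direction and the same call at 4 weeks.

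Liver RNA of 24 male Wistar rats was hybridised, 1 array per animal. The 4 groups of 6 animals were fed 5% protein for 1 week, 20% protein for 1 week, 5% protein for 4 weeks and 20% protein for 4 weeks. Wistar is an outbred laboratory strain, no animal carried an allele or received an agent that the labels name, and the age is not given in the sources used here. The percentages and weeks are those of the sample titles. Both are in some doubt, because codes in the sample descriptions hold 4 and 18 where the titles hold 5 and 20, and the text on the design speaks of 4 weeks alone. Defining hepatocyte genes were at the top of the scale in these samples, with albumin (Alb) between 13.5 and 13.9 in log2 intensity.

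Translation starts when the factor eIF2 carries the initiator tRNA to the small ribosomal subunit, together with eIF1, eIF1A, eIF3 and eIF5. The eIF4 proteins then recruit this complex to the capped end of an mRNA, and eIF5B joins the large subunit. Elongation needs eEF1, which delivers aminoacyl-tRNAs, and eEF2, which moves the ribosome along. Amino acid supply controls the process at eIF2, which the kinase GCN2 phosphorylates when uncharged tRNAs accumulate, and at eIF4E, which 4E-binding proteins hold back when the kinase complex mTORC1 is inactive. The liver makes most plasma proteins and responds to dietary protein through both routes. Arrays report mRNA levels, not the phosphorylation of these proteins.

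The median intensity of an array was 42.4 to 45.5, and the correlation of arrays within a group was 0.984 to 0.995. The animal numbers in the titles fall into 4 runs. Runs 1 (animals 22 to 32) and 3 (59 to 73) were fed for 4 weeks, and runs 2 (49 to 54) and 4 (74 to 79) for 1 week. Both 20% groups split by run. Among the 20% animals at 1 week, the median over the 58 genes of the log2 level relative to each gene's mean over all animals was -0.17 to -0.15 in the 3 animals of run 4 and 0.08 to 0.10 in the 3 of run 2. No value of either run fell in the range of the other. Within this group, 13 members were lower and 1 was higher in run 4 than in run 2 (limma, adjusted p below 0.05), against 6.53% and 4.3% of all genes, while 0 members were called between the runs of the 5% animals of that week (2 at an unadjusted p below 0.05, background 0.342% higher and 0.441% lower). Among the 20% animals at 4 weeks, the same median was -0.28 to -0.16 in the 4 animals of run 3 and -0.05 to -0.03 in the 2 of run 1, again without overlap. Results at both weeks are therefore also given by run.

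At 4 weeks the translation factor mRNAs were higher in livers on 5% protein than on 20% protein, and in broad groups. Of the 58 members, 34 rose and 0 fell (limma, adjusted p below 0.05 over all genes; 41 members had an unadjusted p below 0.05, of which 1, Eif4e3, was lower). Among all 17245 genes 13.4% rose and 12.4% fell. These shares also apply to the 4 week counts of each role below. The diets were unevenly spread over runs 1 and 3, and with run as a covariate 24 of the 34 calls were kept and all 34 differences stayed above 0. The 34 were chosen by the fit of the same animals without run, so that direction is no separate support. The 10 calls lost were those of Eif1a, Eif1ad, Eif2s2, Eif2s3, Eif2b1, Eif3e, Eif4a1, Eif4ebp2, Eef1e1 and Eef2kmt, with adjusted p from 0.0535 to 0.288, and the rises given for them below hold without that covariate. The median difference (5% minus 20% protein, log2) was 0.39 over the members and -0.01 over all genes, and 52 of the 58 differences were above 0. In 19 members all 6 animals on 5% protein lay above all 6 on 20% protein, against 6.55% of all genes, and in 0 members they all lay below, against 5.88%. In whole liver, fewer cells of a type and less RNA per cell cannot be told apart.

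**Figure D1:**
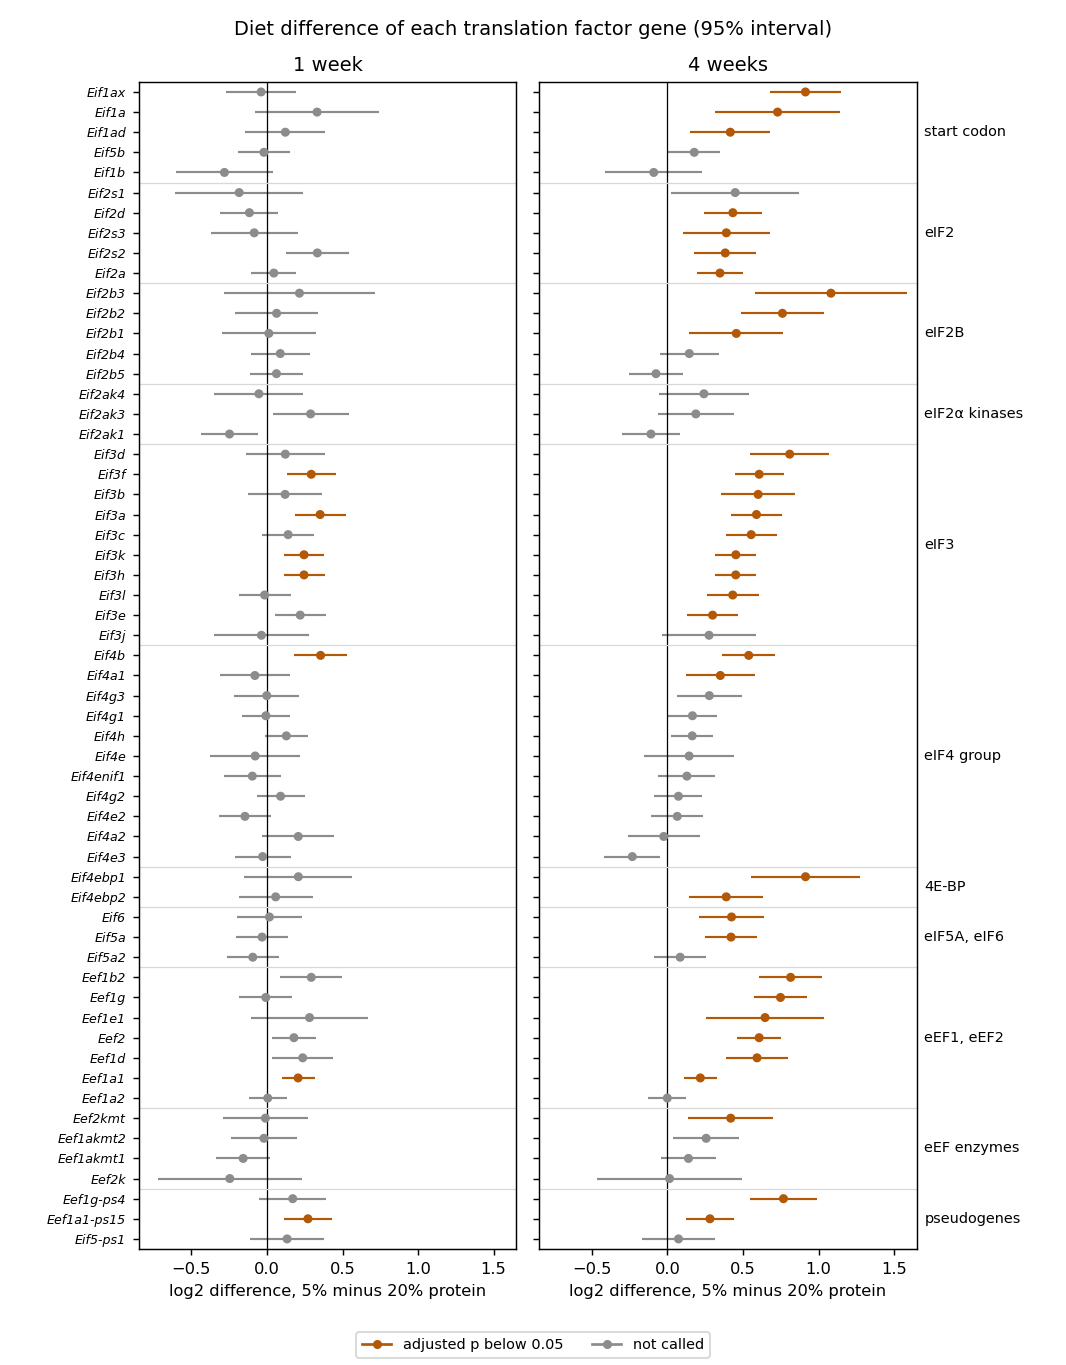
The plot gives the log2 difference (5% minus 20% protein) of each of the 58 genes at 1 week (left) and 4 weeks (right), with its 95% interval from limma, ordered by role. Coloured points passed an adjusted p below 0.05, which are 7 genes at 1 week and 34 at 4 weeks, all to the right of 0.

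The eIF3 complex, the large scaffold that holds the small subunit ready for mRNA, had the fullest response of any role with more than 2 members. At 4 weeks 9 of its 10 measured subunits rose, with differences from 0.28 to 0.81 over the 10 and a median of 0.50. Eif3d, a subunit that can itself bind the mRNA cap, had log2 intensities of 10.26, 10.66 and 10.85 (lowest, median and highest) on 5% protein, against 9.64, 9.77 and 10.14 on 20% protein. The groups did not overlap, and the difference was 0.81 ± 0.13 (SE), or 1.75-fold (limma adjusted p = 3.92e-05). Eif3f reached 9.98, 10.09 and 10.34 on 5% protein, against 9.38, 9.48 and 9.72 on 20% protein. Again no animal overlapped, with a difference of 0.61 ± 0.08 and an adjusted p of 3.33e-06 by limma.

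The genes of subunits a, b and c all rose. Eif3a lay at 9.85, 9.97 and 10.16 on 5% protein, against 9.26, 9.38 and 9.57 on 20% protein, a difference of 0.59 ± 0.08. Eif3b differed by 0.60 and Eif3c by 0.55, also without overlap. Eif3k and Eif3h both rose by 0.45 with no overlap. Eif3l (0.43) and Eif3e (0.30) rose with some overlap between the groups. Eif3j, a loosely attached subunit, was not called. It had 9.94, 10.35 and 10.63 on 5% protein, against 9.77, 10.06 and 10.34 on 20% protein. The difference of 0.28 (limma adjusted p = 0.203) was close in size to that of Eif3e.

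Of the 7 genes named as elongation factors, Eef1e1 among them, 6 rose at 4 weeks, with a median difference of 0.61. Eef1b2, Eef1d and Eef1g form the exchange complex that reloads eEF1A with GTP, and all 3 rose. Eef1g had 11.66, 11.90 and 12.11 on 5% protein, against 10.98, 11.07 and 11.36 on 20% protein (0.75 ± 0.08, 1.68-fold, limma adjusted p = 5.44e-07). Eef1b2 stood at 9.85, 10.10 and 10.43 on 5% protein, against 9.12, 9.24 and 9.60 on 20% protein (0.82 ± 0.10, 1.76-fold). In both genes every animal on 5% protein was above every animal on 20% protein, and so it was for Eef1d (0.59).

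Eef2, the translocase, had 12.73, 12.87 and 13.03 on 5% protein, against 12.11, 12.28 and 12.46 on 20% protein, a difference of 0.61 ± 0.07 (limma adjusted p = 7.13e-07) with no overlap. Eef1a1, the carrier of aminoacyl-tRNA, moved less, at 0.22 ± 0.05, but its values of 13.51, 13.57 and 13.60 on 5% protein also cleared the 13.19, 13.36 and 13.46 on 20% protein. Eef1e1, an elongation factor by name, encodes a small protein of the multi-synthetase complex and rose by 0.65. Eef1a2, the form of eEF1A known from muscle and nerve, had 4.90, 4.99 and 5.08 on 5% protein, against 4.88, 4.94 and 5.27 on 20% protein. The 95% interval of its difference ran from -0.13 to 0.13.

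Among the start codon factors, 3 of 5 rose. Eif1ax encodes eIF1A, which helps the small subunit scan for the start codon. It had 8.02, 8.64 and 8.87 on 5% protein, against 7.44, 7.65 and 7.81 on 20% protein, so that the groups did not overlap (0.91 ± 0.11, 1.88-fold, limma adjusted p = 1.65e-06). Eif1a, a close relative whose probes may share sequence with it (not tested), rose by 0.73, and Eif1ad, with an eIF1A-like domain, by 0.42. Eif5b, the GTPase that joins the large subunit, differed by 0.18 and Eif1b, a relative of the start codon factor eIF1, by -0.09, with adjusted p of 0.13 and 0.737 (limma).

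Of the genes that bring the initiator tRNA, 4 of 5 rose. Eif2s2 and Eif2s3, the beta and gamma subunits of eIF2, both rose by 0.38 to 0.39. The alpha subunit gene Eif2s1, whose product carries the regulatory phosphorylation site, had a difference of 0.45 but a wide error. Its animals ran from 8.96 through a median of 9.28 to 9.82 on 5% protein and from 8.18 through 8.78 to 9.47 on 20% protein, and the adjusted p was 0.118 (limma). Eif2a, which delivers initiator tRNA by another route, had 8.71, 8.82 and 8.88 on 5% protein, against 8.19, 8.48 and 8.63 on 20% protein. With no overlap the difference was 0.35 ± 0.07 (limma adjusted p = 0.000785). Eif2d, which also takes part in recycling of the small subunit, had 8.07, 8.36 and 8.43 on 5% protein, against 7.79, 7.83 and 8.02 on 20% protein (0.43 ± 0.09), again without overlap.

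Of the 5 genes of the eIF2B complex, which recharges eIF2 with GTP and is what phosphorylated eIF2 blocks, 3 rose. The genes of subunits alpha, beta and gamma (Eif2b1, Eif2b2 and Eif2b3) rose, and those of delta and epsilon (Eif2b4 and Eif2b5) did not pass. The subunits were not tested against each other, and the Eif2b1 call was lost with run as a covariate. Eif2b3 had the largest difference of the 58 members at 4 weeks, with 7.89, 8.37 and 9.06 on 5% protein, against 6.89, 7.12 and 7.97 on 20% protein (1.08 ± 0.24, 2.12-fold, limma adjusted p = 0.00154). The lowest animal on 5% protein was below the highest on 20% protein. With run as a covariate the Eif2b3 difference was 0.83, and those of Eif4ebp1 (0.91) and Eif1ax (0.88) were larger. Eif2b2 had 7.90, 8.35 and 8.74 on 5% protein, against 7.28, 7.56 and 7.93 on 20% protein, a difference of 0.76 ± 0.13 with a slight overlap. Eif2b5, the catalytic subunit, had 7.79, 7.97 and 8.03 on 5% protein, against 7.95, 7.98 and 8.20 on 20% protein, a difference of -0.08 with a 95% interval from -0.25 to 0.10.

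None of the 3 measured eIF2 alpha kinases was called at 4 weeks (limma, and 0 of 3 also at an unadjusted p below 0.05). Over all genes 13.4% were called higher and 12.4% lower, so 0 of 3 does not set the kinases apart. Eif2ak4 (GCN2, the sensor of uncharged tRNA) had 7.47, 7.62 and 7.73 on 5% protein, against 6.87, 7.40 and 7.64 on 20% protein (0.24, 95% interval -0.05 to 0.54, adjusted p = 0.242). The groups overlapped, and the lowest animals were on 20% protein. Eif2ak3 (PERK, which responds to stress of the endoplasmic reticulum) differed by 0.19 and Eif2ak1 (the heme-regulated kinase) by -0.11.

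In the eIF4 group, which reads the cap and unwinds the mRNA, 2 of 11 genes rose, against 13.4% of all genes. In this group 6 had an unadjusted p below 0.05 and 9 had a difference above 0. The 2 called were the helicase gene Eif4a1 (0.35, limma adjusted p = 0.0213) and its stimulator Eif4b. Eif4b had 11.80, 11.87 and 12.06 on 5% protein, against 11.19, 11.36 and 11.58 on 20% protein, with no overlap and a difference of 0.54 ± 0.08. The cap-binding protein gene Eif4e had 9.30, 9.36 and 9.90 on 5% protein, against 9.10, 9.25 and 9.69 on 20% protein (0.14, 95% interval -0.15 to 0.44). The scaffold genes Eif4g1 and Eif4g3 differed by 0.17 and 0.28, with adjusted p of 0.126 and 0.0526. The lowest difference of all members was that of Eif4e3, an atypical cap-binding relative, at -0.23 (adjusted p = 0.0598).

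Both measured 4E-binding protein genes rose. Eif4ebp1 encodes the best studied of them, which blocks eIF4E until mTORC1 phosphorylates it. It had 9.79, 10.19 and 10.48 on 5% protein, against 8.97, 9.15 and 9.91 on 20% protein (0.91 ± 0.17, 1.88-fold, limma adjusted p = 0.000311). The overlap came from 1 animal in each group, the lowest on 5% protein (9.79) and the highest on 20% protein (9.91). Eif4ebp2 had 9.98, 10.53 and 10.82 on 5% protein, against 9.92, 10.11 and 10.30 on 20% protein, a difference of 0.39 ± 0.12.

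Eif5a and Eif6 rose by similar amounts. Eif5a, the hypusine-bearing factor that helps ribosomes past difficult stretches, had 11.78, 12.03 and 12.16 on 5% protein, against 11.40, 11.57 and 11.84 on 20% protein (0.42 ± 0.08). Eif6, which keeps the large subunit from joining too early, rose by 0.42, and the second eIF5A gene, Eif5a2, differed by 0.08. Of the 4 enzymes that modify elongation factors, 1 was called higher, against 13.4% of all genes. It was Eef2kmt, a methyltransferase of eEF2, with 6.18, 6.53 and 6.81 on 5% protein, against 5.85, 5.98 and 6.44 on 20% protein (0.42 ± 0.14, limma adjusted p = 0.0239). That call was lost when any 1 of 5 animals was left out (22 or 23 on 5% protein, 63, 72 or 73 on 20% protein). Eef2k, the kinase that inhibits eEF2, differed by 0.01 with a 95% interval from -0.46 to 0.49. The 2 called pseudogene symbols, Eef1g-ps4 (0.77) and Eef1a1-ps15 (0.28), moved in the direction of Eef1g and Eef1a1.

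**Figure D2:**
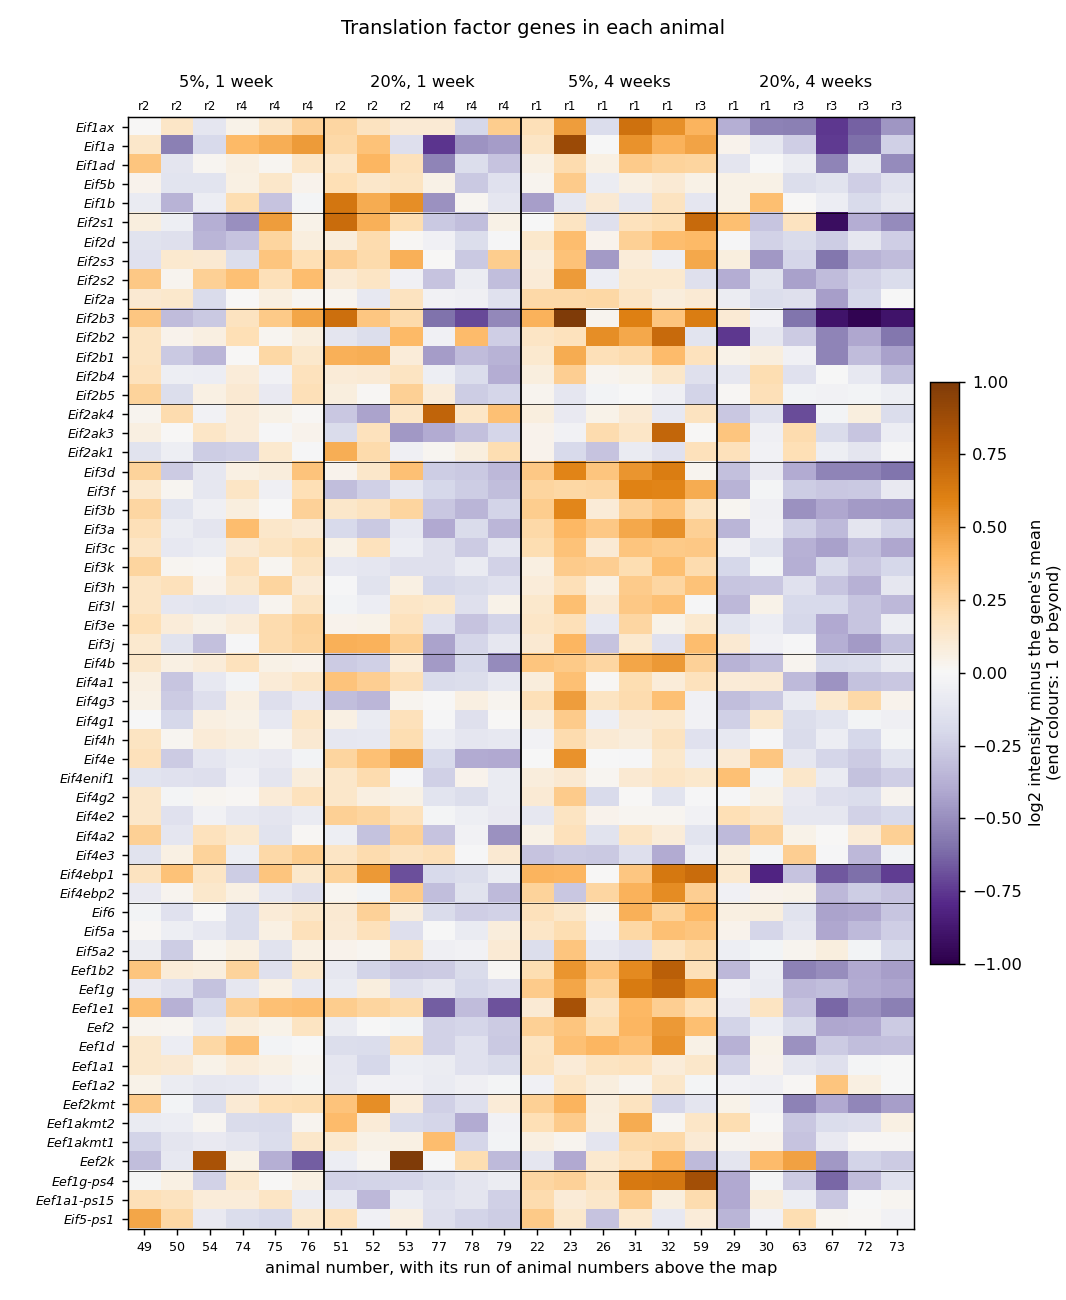
Each column is an animal and each row a gene, grouped by role as in the plot of differences, and the colour is the log2 intensity minus that gene's mean over the 24 animals. The block of 5% animals at 4 weeks is mostly above the mean and that of 20% animals at 4 weeks mostly below, and the 20% animals at 1 week split between runs 2 and 4.

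Because many members moved together, promoters were searched for a pair of motifs tied to growth and amino acid supply: CACGTG, the E-box that Myc and related factors bind, and TGATGNAA, the core of the amino acid response element that ATF4 binds. Windows ran from 250 bases before to 50 after the annotated transcript start (RefSeq, GRCr8), on both strands. Of the 58 members, 49 had one. Eif4ebp1 was among those without a window, so its promoter was not searched. CACGTG was in 11 of 49 members (22.45%), against 7.08% of the 27457 genes with a window. It was in 5 of 27 members called higher at 4 weeks (18.5%) and in 6 of 22 not called (27.3%). TGATGNAA was in 1 of 49, against 4.16% of all genes with a window, and no member's window held both motifs. The 100 bases before the start are shown for 3 called members with an E-box and for the uncalled Eif4e with one. They are also shown for the single searched member with the ATF4 motif, and for 2 strongly changed members with neither. Capitals mark the motif. Of these 7 stretches, 3 lie next to the edge of the gene in the RefSeq gene table, and the start used for the others differs from that edge.
Eef2, chr7:9189239-9189338, minus strand: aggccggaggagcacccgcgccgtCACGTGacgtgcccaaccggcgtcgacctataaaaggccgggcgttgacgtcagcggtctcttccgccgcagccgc
Eif3b, chr12:19334769-19334868, minus strand: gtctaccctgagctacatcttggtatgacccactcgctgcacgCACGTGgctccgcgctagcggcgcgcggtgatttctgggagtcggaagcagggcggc
Eif3f, chr1:172368962-172369061, plus strand: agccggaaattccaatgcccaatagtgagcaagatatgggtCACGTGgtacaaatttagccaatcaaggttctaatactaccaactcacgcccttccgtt
Eif4e, chr2:229740653-229740752, plus strand: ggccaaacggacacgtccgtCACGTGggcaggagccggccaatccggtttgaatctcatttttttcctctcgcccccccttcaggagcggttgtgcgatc
Eif2s2, chr3:163855571-163855670, minus strand: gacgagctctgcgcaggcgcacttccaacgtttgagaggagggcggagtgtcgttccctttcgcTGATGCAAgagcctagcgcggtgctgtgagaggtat
Eif1ax, chrX:39322024-39322123, minus strand: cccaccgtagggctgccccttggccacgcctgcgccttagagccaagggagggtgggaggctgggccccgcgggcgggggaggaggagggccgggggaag
Eif2b3, chr5:135728742-135728841, plus strand: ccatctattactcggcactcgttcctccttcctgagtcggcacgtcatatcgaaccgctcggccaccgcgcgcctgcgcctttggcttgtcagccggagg
A match is a description of these letters, not a site of binding.

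After 1 week fewer genes differed and by less. On 5% protein 7 members rose and 0 fell (limma; 14 had an unadjusted p below 0.05, of which 1, Eif2ak1, was lower), against 1.86% and 2.44% of all genes. The median difference was 0.06 over the members and -0.01 over all genes. The 7 were Eif3a, Eif3f, Eif3h and Eif3k of eIF3, Eif4b, Eef1a1 and Eef1a1-ps15, with differences from 0.21 to 0.35. All 7 were also among the 34 called at 4 weeks.

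Eif4b had 11.58, 11.62 and 11.72 on 5% protein, against 11.04, 11.30 and 11.64 on 20% protein at 1 week, a difference of 0.35 ± 0.08 (limma adjusted p = 0.0169). One 20% animal reached into the 5% range. Eif3a had 9.49, 9.73 and 9.99 on 5% protein, against 9.21, 9.38 and 9.52 on 20% protein (0.35 ± 0.08, adjusted p = 0.0138). Eif3f had 9.64, 9.81 and 9.94 on 5% protein, against 9.43, 9.50 and 9.64 on 20% protein (0.29 ± 0.08, adjusted p = 0.0335), and it was 1 of 3 members, with Eif3k and Eef1a1, in which the groups did not overlap (background 1.2%). In 0 members did all animals on 5% protein lie below (background 1.36%). Eif3h differed by 0.24 and Eef1a1-ps15 by 0.27. Eif4ebp1 had 9.53, 9.95 and 10.13 on 5% protein, against 9.09, 9.66 and 10.30 on 20% protein, a difference of 0.21 with a 95% interval from -0.15 to 0.56.

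The 1 week count changed with the run, the position row and single animals. The row letter of the position code in the titles was never shared by both diets at that week, and with row as a random block 0 members were called. Leaving out the 3 animals of run 4 on 20% protein gave 0 higher and 1 lower (Eif1b, -0.65), and leaving out the 3 of run 2 gave 6 higher. The count was 2 without animal 49 or 74 of the 5% group or animal 79 of the 20% group, and 4 without animal 52, 77 or 78 of the 20% group.

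Within run 2 alone, 0 members were higher and 3 were lower on 5% protein (Eif1b -0.72, Eif2b1 -0.47 and Eif4a1 -0.38), against 2.86% and 4.71% of all genes. Within run 4 alone, 13 were higher and 0 lower, against 4.04% and 4.45%. The median difference of the members was -0.10 in run 2 and 0.21 in run 4. Tested directly, the diet difference was larger in run 4 than in run 2 for 10 members and smaller for 0 (limma, background 4.76% and 2.53%). The 10 included Eif2b3 (1.42), Eif1a (1.35), Eef1e1 (1.22) and Eif2b1 (0.97). Of the genes called over both runs, Eif4b differed by 0.23 in run 2 and 0.48 in run 4, and Eif3a by 0.19 and 0.52. Both were called in a fit of these same animals, so a shared direction is no separate support.

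Between the runs of that week, 13 members were lower and 1 higher in run 4 on 20% protein (background 6.53% and 4.3%). On 5% protein 0 were called (background 0.441% and 0.342%). In the 20% animals at 1 week, run 4 was lower than run 2 for Eif2b3 (-1.02), Eef1e1 (-0.81), Eif1b (-0.74), Eif1a (-0.70), Eif2b1 (-0.69) and Eif4e (-0.69), among others. In the 5% animals run 4 minus run 2 was 0.65 for Eif1a, 0.40 for Eef1e1, 0.40 for Eif2b3 and 0.28 for Eif2b1. It was 0.13 for Eif1b and -0.001 for Eif4e. None of these was called, and 41 of 58 members were above 0. The gene higher in run 4 on 20% protein was Eif2ak4 (GCN2), by 0.60. Its values in that group ran from 7.14 to 8.30. In the 20% group at 1 week the summed intensity of dividing cell markers was 863 to 1481 in run 4 and 435 to 890 in run 2, and that of erythroid markers 7845 to 11595 in run 4 and 5887 to 8201 in run 2. Both pairs of ranges overlapped, and their part in the result was not tested.

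**Figure D3:**
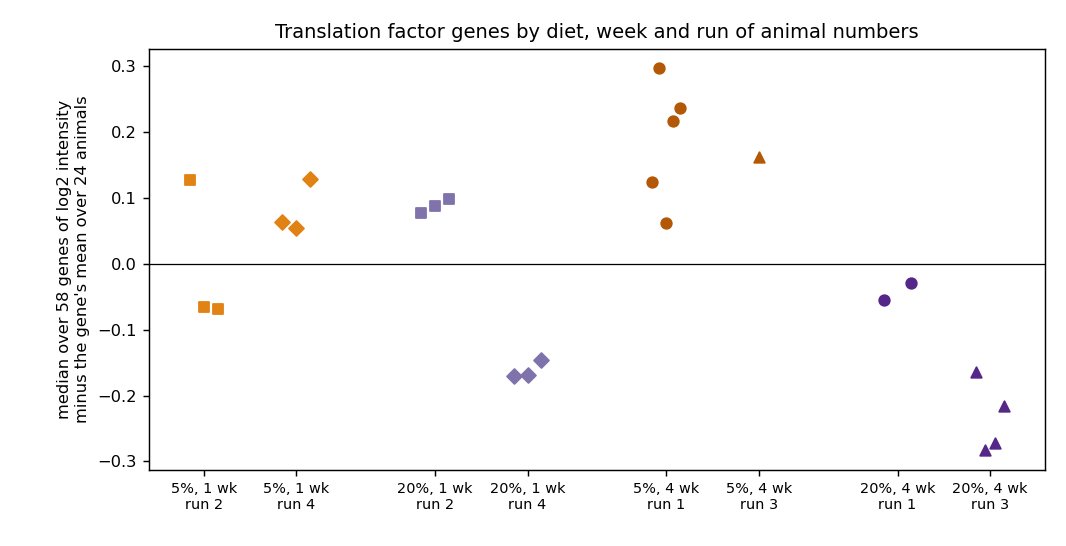
Each point is an animal, and the vertical axis is the median over the 58 genes of its log2 intensity minus each gene's mean over 24 animals. At 4 weeks every 5% animal is above every 20% animal, and at 1 week the 20% animals of run 4 sit between -0.17 and -0.15 and those of run 2 between 0.08 and 0.10.

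At 4 weeks run 1 held 5 animals on 5% protein and 2 on 20% protein, and run 3 held 1 and 4. Of the 58 members, 49 had a difference above 0 in run 1 and 49 in run 3. Over all 17245 genes, 8096 and 8154 did. All 34 called members were above 0 in both runs. They were called in a fit of these same animals, so their direction by run is no separate support. Run 1 alone called 18 members higher and 0 lower (background 8.32% and 7.54%). Run 3 alone called 22 higher and 0 lower (background 6.83% and 5.49%), with the spread of its single 5% animal taken from the other groups. Of the 34, 12 were called in both runs, namely Eif1ax, Eef1b2, Eef1g, Eef1g-ps4, Eef2 and the eIF3 genes a, b, c, d, f, h and k. Eif2b3 differed by 0.49 in run 1 (adjusted p = 0.147) and 1.46 in run 3, and Eif2b2 by 0.84 in run 1 and 0.32 in run 3, where it was not called. Eif4ebp1 differed by 0.70 in run 1 (adjusted p = 0.067) and 1.28 in run 3. In the 20% animals at 4 weeks, 1 member differed between the runs (Eif4a1, 0.45 lower in run 3, background 0.957% lower and 0.841% higher). There 15 had an unadjusted p below 0.05, 10 of 58 differences (run 3 minus run 1) were above 0, and the median was -0.18. In the 5% animals, 0 of 58 did (3 at an unadjusted p below 0.05, background 0%), with 1 animal in run 3.

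The diet difference was larger at 4 weeks than at 1 week for 11 members. In the test of the 4 week difference minus the 1 week difference, these 11 were higher and 0 lower (limma; 26 had an unadjusted p below 0.05, all of them higher), against 3.54% and 2.2% of all genes. The median was 0.29 over the members and 0.00 over all genes, and in 51 of 58 members the 4 week difference exceeded the 1 week difference. The 11 were Eif1ax (0.95 ± 0.16, adjusted p = 0.00145), Eef1g (0.76 ± 0.12, adjusted p = 0.00104), Eif2b2 (0.70), Eif3d (0.69), Eef1g-ps4 (0.60), Eif2d (0.55), Eef1b2 (0.52), Eif5a (0.45), Eif3l (0.45), Eef2 (0.43) and Eif3c (0.41). Eif4ebp1 (0.71, adjusted p = 0.0875) and Eif2b3 (0.87, adjusted p = 0.137) did not pass.

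This count rested in part on the split 20% group and on single animals. Without its run 2 animals 3 members were called, and without its run 4 animals 20. With run as a covariate the count was 4. It was 7 without animal 50 (5% protein, 1 week), 6 without animal 31 and 5 without animal 32 (5% protein, 4 weeks), and 6 without animal 73 (20% protein, 4 weeks). Eif1ax and Eef1g passed under each of the alternatives and each animal left out.

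**Figure D4:**
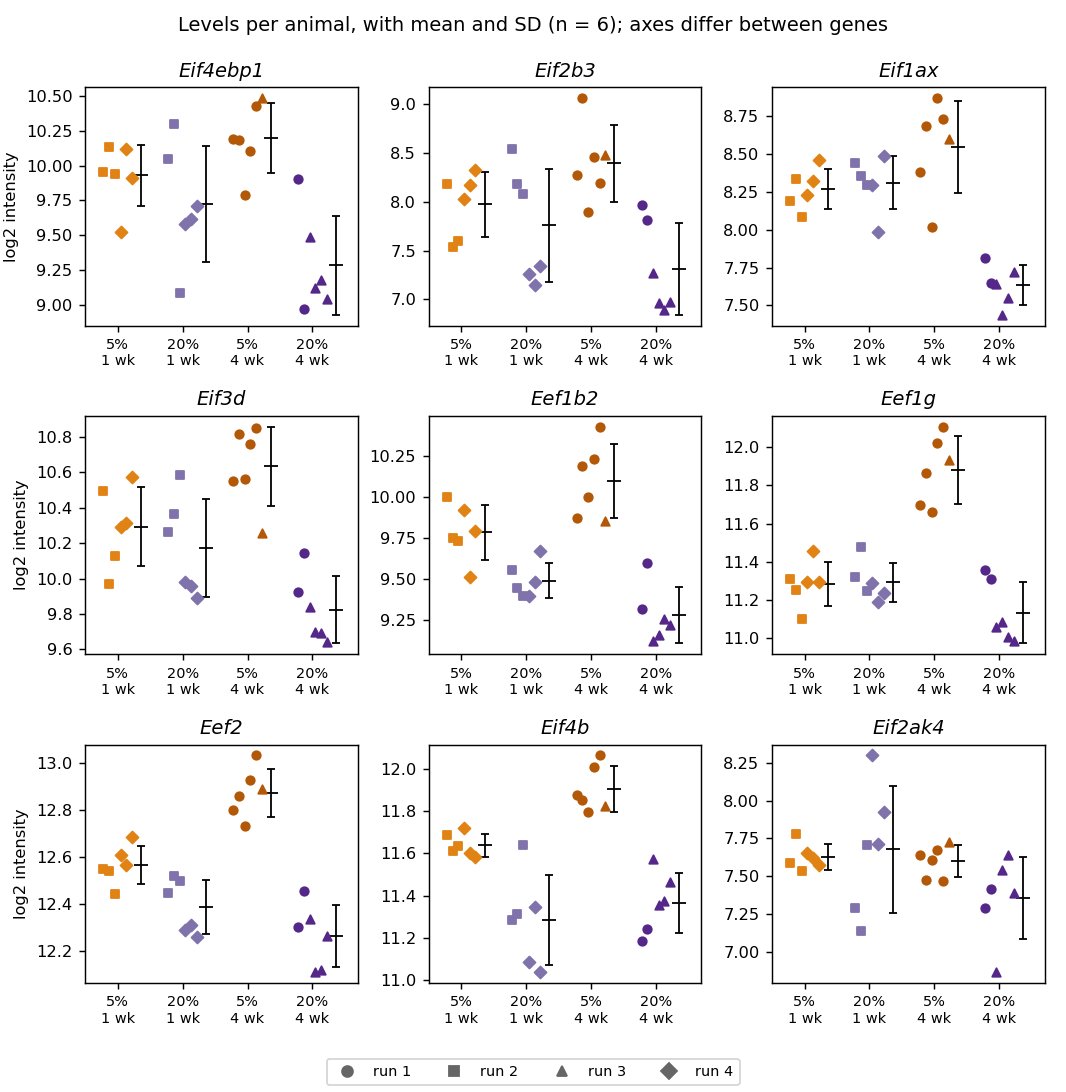
The log2 intensity of 9 genes is shown for each animal by diet and week, with the mean and SD of 6 animals, and the symbol gives the run of animal numbers. Eef1g and Eef2 are higher at 4 weeks on 5% protein than in any other animal, while Eif1ax is lower at 4 weeks on 20% protein than in any other animal.

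Between 1 and 4 weeks, 48 of the 58 members had a change above 0 on 5% protein and 12 on 20% protein. These comparisons join time with the age of the animals and with their run, which cannot be told apart. On 5% protein 6 members were higher and 1 lower at 4 weeks than at 1 week (background 4.15% and 4.13%), with a median of 0.16. Eef1g, whose 4 and 1 week values on 5% protein were 11.66 to 12.11 and 11.10 to 11.46, changed by 0.60 ± 0.08 (limma adjusted p = 0.000252), followed by Eef1g-ps4 (0.47), Eif2d (0.36), Eif3f (0.34), Eef2 (0.31) and Eif3a (0.27). The member called lower was Eif4e3 (-0.35), with 5.45, 5.58 and 5.78 at 4 weeks, against 5.70, 5.99 and 6.14 at 1 week. That call was lost without animal 32. The Eif3a call was lost in 8 of 12 fits that left out 1 animal and under 3 of 11 other alternatives.

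On 20% protein 0 members were higher and 1 lower at 4 weeks than at 1 week (limma; 15 had an unadjusted p below 0.05, all of them lower), against 1.02% and 1.5% of all genes. The median was -0.14. The called gene was Eif1ax, with 7.44, 7.65 and 7.81 at 4 weeks, against 7.99, 8.33 and 8.49 at 1 week, a change of -0.68 ± 0.11 (adjusted p = 0.00095) and no overlap. Eif1ax on 5% protein differed by 0.28 over the same time (adjusted p = 0.137). Without the run 4 animals of the 20% group at 1 week, 12 members were called lower, and without those of run 2, 2 were. The count was 3 without animal 29 and 2 without animal 30 or 78.

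Other genes of translation and its control were measured for 45 of 55 listed. At 4 weeks 21 rose and 2 fell on 5% protein, against 13.4% and 12.4% of all genes. At 1 week 1 rose and 0 fell (11 of 45 at an unadjusted p below 0.05), against 1.86% and 2.44%. The shares of 13.4% and 12.4% also apply to the 4 week counts of each list. At 1 week the called gene was Ddit4 (1.31 ± 0.35), which restrains mTORC1, and at 4 weeks it differed by 1.91 ± 0.35. Of the 16 genes around mTORC1, 4 rose and 1 fell at 4 weeks. They included Rps6, a ribosomal protein that the pathway phosphorylates (0.62 ± 0.09), while Sesn3, another brake on mTORC1, fell by 0.68.

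Eif5a carries hypusine and Eef2 carries diphthamide, amino acids made on them by enzymes. Of 6 enzymes of these syntheses 5 rose at 4 weeks, with Dph1, which starts diphthamide on eEF2, at 1.48 ± 0.20 and Dohh, which completes hypusine on eIF5A, at 0.72 ± 0.17. The phosphatase partners of eIF2 alpha went opposite ways. Ppp1r15a (GADD34), the inducible one, rose by 1.14 ± 0.23, and Ppp1r15b (CReP), the constitutive one, fell by 0.71 (SE 0.14). In that list 3 of 5 genes rose and 1 fell.

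In termination, recycling and rescue 5 of 8 genes rose, among them Pelo, which frees stalled ribosomes (0.68 ± 0.13), and the release factor gene Gspt2 (0.65 ± 0.14). Of 4 genes of poly(A) tail binding, 1 rose, Pabpc4 (1.43 ± 0.13, limma adjusted p = 1.54e-08). Mitochondrial translation factors showed 3 of 6 higher, with Gfm2, a ribosome recycling factor, at 0.26 ± 0.08 and the initiation factor gene Mtif2 at 0.31 ± 0.09. Over all 45 genes, 5 had a larger difference at 4 weeks than at 1 week by the direct test (Dph1, Dph6, Rps6, Gfm2 and Pabpc4), and 0 a smaller one. The background was 3.54% larger and 2.2% smaller.

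**Figure D5:**
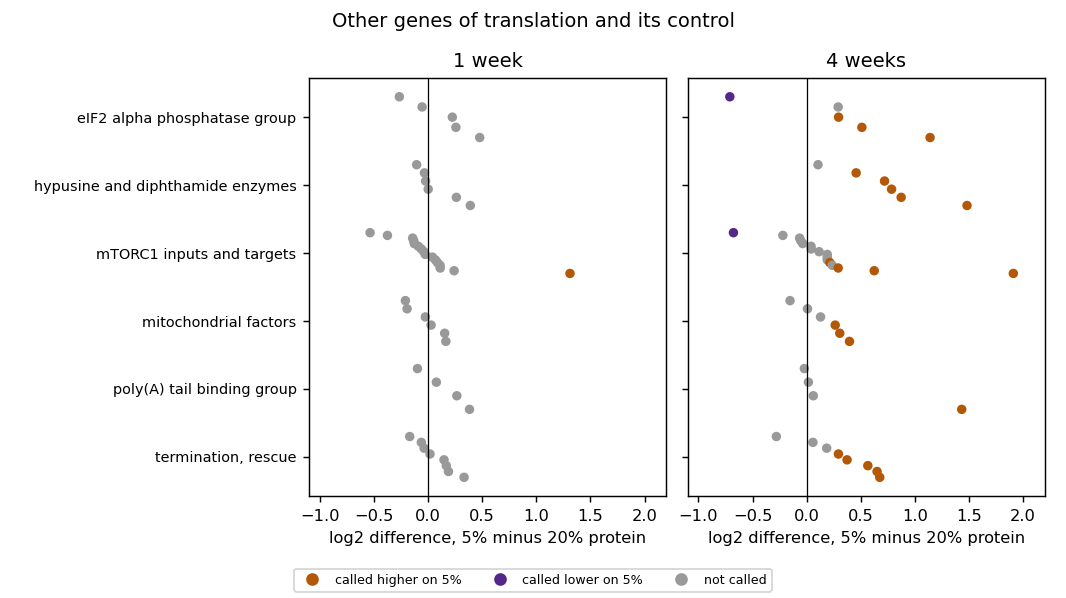
Each point is a gene of 6 lists outside the factors themselves, placed by its log2 difference (5% minus 20% protein) at 1 week (left) and 4 weeks (right). Ddit4 is the called gene at 1 week, and at 4 weeks 21 genes are called higher and 2 lower.

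Markers of other cells also differed between the diets, and their part in the results was not tested. Over all genes 13.4% rose and 12.4% fell at 4 weeks, and 1.86% and 2.44% at 1 week. Of 7 Kupffer cell and macrophage genes, 6 fell at 4 weeks, and their summed intensity was 2513 to 3269 on 5% protein and 3608 to 6246 on 20% protein, without overlap. Of 5 erythroid genes, 2 fell at 1 week (Epb42 and Ahsp) and 2 different ones at 4 weeks (Hbb and Alas2). Erythroid sums were 972 to 6775 on 5% protein and 3250 to 10372 on 20% protein at 4 weeks. Of 6 genes of dividing cells, 1 (Mcm4) fell at each week, with sums of 367 to 572 on 5% protein and 415 to 802 on 20% protein at 4 weeks. Of 5 cholangiocyte genes, 2 rose at 4 weeks (Epcam and Sox9), while Cftr (0.35), Krt7 (-0.02) and Krt19 (-0.52) were not called. The cholangiocyte sums were 294 to 704 on 5% protein and 249 to 362 on 20% protein. Of the stellate cell and lymphocyte lists, 1 of 5 genes fell in each at 4 weeks (Reln and Ptprc). Stellate sums were 1341 to 1558 on 5% protein and 1775 to 2795 on 20% protein, without overlap, and lymphocyte sums were 224 to 274 on 5% protein and 272 to 386 on 20% protein. Of 3 endothelial genes 0 passed by limma (1 at an unadjusted p below 0.05), with sums of 2170 to 2577 on 5% protein and 2564 to 3058 on 20% protein. Of 7 hepatocyte genes 4 fell at 4 weeks (Cps1, Fgb, Ttr and Serpina1), with sums of 53610 to 65641 on 5% protein and 62492 to 72708 on 20% protein.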

How the data were processed

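Liver RNA of 24 rats was measured on 1-colour whole-transcript arrays, labelled with biotin per the labels' protocols. The authors deposited 1 unlogged intensity per probe set and array, made by RMA, which corrects background, quantile-normalizes arrays and summarises probes, per the labels and the submitters' processing notes, which give no version. They carry no detection call, so no level was treated as absent, and the number of arrays limits the precision. The log2 of the deposited intensity was taken.

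Of 29214 probe sets, 18644 paired with 1 symbol, 962 with several and 9608 with none. The first kind, with 1 probe set per gene, gave 17245 genes, and all 58 members were found under the same symbol in RefSeq. The files name no genome build, and the promoter letters and positions are from RefSeq, GRCr8.

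The 4 group means were fitted with limma 3.58.1 (lmFit, eBayes) in R 4.3.3, with 20 residual degrees of freedom. Calls are Benjamini-Hochberg adjusted p below 0.05 over 17245 genes, two-sided, and all adjusted p are limma's. Runs were fitted as group and run means in 1 model. The fit was tested on simulated data with independent noise. That simulation held no run or position effects, so it does not cover them.

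The members, role lists, other lists and tests were chosen with earlier results of these data known, so nothing here is independent of them. Members were named by a rule: Eif4ebp1, the 5 largest called differences in each diet comparison and in diet by time, the smallest p of each role at 4 weeks, and the 3 largest called changes with time. Others are given as part of their role's count, and those given for single runs were chosen after seeing their values. In other lists, the called genes with the 2 smallest p at 4 weeks are named, and others named there were chosen after their values were seen.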

Additional observations from a re-analysis of the deposited data

Results flagged for a closer look

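In 9 of 232 sets of 6 animals (58 genes in 4 groups), 1 animal lay far from the other 5 (Dixon's test, critical value 0.625). Chance flags about 1 in 20 such sets, which would be 11.6. The low values were Eef1a1-ps15 in animal 76 on 5% protein at 1 week (10.71), Eif4ebp1 in animal 74 on 5% protein at 1 week (9.53) and Eef1akmt1 in animal 63 on 20% protein at 4 weeks (6.37). The high values on 5% protein at 4 weeks were Eif2ak3 in animal 32 (8.92) and Eif4e in animal 23 (9.90). On 20% protein at 1 week, animal 53 was high for Eef1d (9.02) and for Eif4h (10.81). On 20% protein at 4 weeks, Eef1a2 was high in animal 67 (5.27) and Eif2b5 in animal 30 (8.20).

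The diet difference at 4 weeks exceeded that at 1 week by the direct test (limma, adjusted p below 0.05) for 11 members. The excess in log2 was 0.95 for Eif1ax, 0.76 for Eef1g, 0.70 for Eif2b2, 0.69 for Eif3d, 0.60 for Eef1g-ps4, 0.55 for Eif2d, 0.52 for Eef1b2, 0.45 for Eif5a, 0.45 for Eif3l, 0.43 for Eef2 and 0.41 for Eif3c.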

How the results depend on the processing

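Of 1018 recomputed values for the 36 called differences of named members, 903 kept their direction and call, 115 kept the direction but lost the call, and 0 reversed. The 4 week count of 34 higher ranged from 30 to 36 when single animals were left out, and was 18 in run 1 alone and 22 in run 3 alone, each with fewer animals. It was 24 with run as a covariate. For members lower at 4 weeks (0), the count was 1, Eif4e3, with the lowest 33.3% of genes left out (adjusted p = 0.0483, against 0.0598), and 0 to 1 when single animals were left out (1 without animal 59 on 5% protein or animal 72 on 20% protein).

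The 1 week count of 7 higher was 4 with arrays centred on the median, 2 in a fit of the compared groups only, 0 in run 2 alone, 13 in run 4 alone, 0 with position row as a random block, 0 without the 20% animals of run 4, and 2 to 6 when single animals were left out. For members lower (0) it was 3 in run 2 alone and 1 without the 20% animals of run 4. The diet by time count of 11 was 4 with run as a covariate, 3 and 20 without the 20% animals of run 2 and of run 4, and 5 to 13 when single animals were left out. On 5% protein over time the count of 6 higher was 10 with array weights, and that of 1 lower was 0 to 1 when single animals were left out. On 20% protein over time the count of 1 lower was 2 with centred arrays, 2 with the lowest 33.3% left out, 4 with array weights, 2 and 12 without the 20% animals of run 2 and of run 4 at 1 week, and 1 to 3 when single animals were left out. The causes were not tested. No paired analysis was possible because each animal number occurs in a single group.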
